A study of Rattus norvegicus with 3 samples.

Results

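Cycling myeloid cells were taken from single-cell RNA sequencing of diabetic rat wounds as the barcodes that carried genes of cell division together with genes of myeloid cells. A barcode, the tag of 1 droplet, was kept with at least 500 UMIs (counted RNA molecules), at least 300 genes and at most 20% mitochondrial UMIs. A cycling myeloid barcode then had a UMI of at least 3 of the 8 cycle genes Mki67, Top2a, Cdk1, Birc5, Ccnb1, Cenpf, Ube2c and Tpx2, and of at least 2 of the 6 myeloid genes Cd68, Csf1r, C1qa, C1qb, Lyz2 and Ptprc. It had no UMI of the 3 genes Pdgfra and Lum (fibroblasts) and Cd3e (T cells). This left 247 of 41236 barcodes past the filter: 35 of the 11965 untreated barcodes, 156 of the 14346 from the hydrogel and 56 of the 14925 from the CO hydrogel. The barcodes were thus selected on measured UMIs of these 17 genes, whose levels in them describe the selection and support nothing.

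All animals were wild type male SD rats given streptozotocin, a toxin of pancreatic beta cells, at 65 mg/kg and 7 to 9 weeks of age, and used once blood glucose was over 16.7 mM. Full-thickness skin wounds of 15 mm were left untreated, were treated with hyaluronic acid hydrogel (hydrogel), or received its CO-releasing form (CO hydrogel), where CO is carbon monoxide. Skin was collected after 7 days, at 8 to 10 weeks of age. Each group was 1 library, the sources used here do not give the number of animals behind it, and no library came from a non-diabetic rat. No difference between groups was therefore tested and none has a replicate check. Every interval given is a 95% interval for counting error alone.

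A cell that divides first copies its DNA and then separates the copies on a spindle. Genes for copying (the Mcm helicase, Pcna, ribonucleotide reductase) peak in S phase, and genes for separation (cyclin B, Cdk1, kinesins, Top2a) peak in G2 and mitosis. Macrophages in a healing wound derive largely from blood monocytes, but differentiated macrophages can also divide in tissue, under signals such as CSF1 acting on its receptor Csf1r. They engulf debris and dead neutrophils, and pass from a state rich in inflammatory cytokines to one linked to repair.

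The promoters of the cycle genes that chose these barcodes were read for short sequence features. Those shown are the 4 that held both kinds marked below. Each line holds the 150 bases before the annotated start of the gene, in the direction of transcription, from RefSeq on build GRCr8. Capitals mark the cell cycle homology region (CHR, letters TTTGAA or TTTAAA) and the CCAAT box (letters CCAAT), each on either strand, so that a reverse match reads TTCAAA or ATTGG. In Mki67 1 match of each kind overlap. The positions are chr20:19265143-19265292 on the plus strand for Cdk1, chr2:33655226-33655375 on the minus strand for Ccnb1, chr10:84473094-84473243 on the minus strand for Top2a and chr1:199952594-199952743 on the minus strand for Mki67.
Cdk1: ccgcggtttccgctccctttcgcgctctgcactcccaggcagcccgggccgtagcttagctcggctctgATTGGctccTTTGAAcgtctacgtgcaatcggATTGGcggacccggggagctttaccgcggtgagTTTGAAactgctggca
Ccnb1: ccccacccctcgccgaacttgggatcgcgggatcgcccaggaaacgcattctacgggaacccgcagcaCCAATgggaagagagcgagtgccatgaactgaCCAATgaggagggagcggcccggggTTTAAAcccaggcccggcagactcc
Top2a: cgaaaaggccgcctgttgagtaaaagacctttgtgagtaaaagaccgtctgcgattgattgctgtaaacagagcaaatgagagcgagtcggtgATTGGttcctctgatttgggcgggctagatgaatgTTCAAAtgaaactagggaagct
Mki67: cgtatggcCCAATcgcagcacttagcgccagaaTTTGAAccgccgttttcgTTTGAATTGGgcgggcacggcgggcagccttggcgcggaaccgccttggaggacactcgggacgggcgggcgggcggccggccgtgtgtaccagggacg
A CHR lay in 41 of 73 promoters (56.2%) of the mitosis gene lists, in 2 of 51 (3.92%) of the replication lists and in 15.0% of all 33469 promoters of this length. It also lay in 3 of 7 promoters (42.9%) of a macrophage list and in 2 of 20 (10%) of inflammatory and interferon lists. CHR and CCAAT box together lay in 30 of the 73 mitosis promoters (41.1%), in 0 of the 51 replication promoters and in 3.68% of all. The same pair lay in 1 of the 7 macrophage promoters (14.3%) and in 1 of the 20 inflammatory and interferon promoters (5%). An E2F site (TTTCCCGC, TTTGGCGC, TTTGGCGG, TTTCGCGC, TTTCCCGG or TTTCGCGG, either strand) lay in 16 of the 51 replication promoters (31.4%), in 1 of the 73 mitosis promoters (1.37%) and in 2.06% of all. Of the 6 genes of the rule with a promoter sequence, 5 held a CHR, 5 a CCAAT box and 1 an E2F site. Birc5 held no CCAAT box and Cenpf no CHR, and these are not shown. A match describes the letters only.

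The label of myeloid cells was borne out for only part of the barcodes. A barcode was called macrophage-marked when it held a UMI of at least 6 of 13 macrophage genes that the rule did not use (C1qc, Cd14, Adgre1, Mertk, Fcgr1a, Aif1, Msr1, Cybb, Ctss, Ms4a7, Cd63, Tyrobp, Fcer1g), and marked for another lineage when it held at least 4 genes and 10 UMIs of a keratinocyte, endothelial, mural, T or NK, or mast cell list. Macrophage-marked and nothing else were 6 of 35 untreated barcodes (17.1%), 96 of 156 hydrogel barcodes (61.5%) and 31 of 56 CO hydrogel barcodes (55.4%). Marked only for another lineage were 20, 37 and 14. Both marks stood on 5, 15 and 3, and neither on 4, 8 and 8, of which 1, 2 and 5 had at least 4 class II antigen presentation genes.

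**Figure D1:**
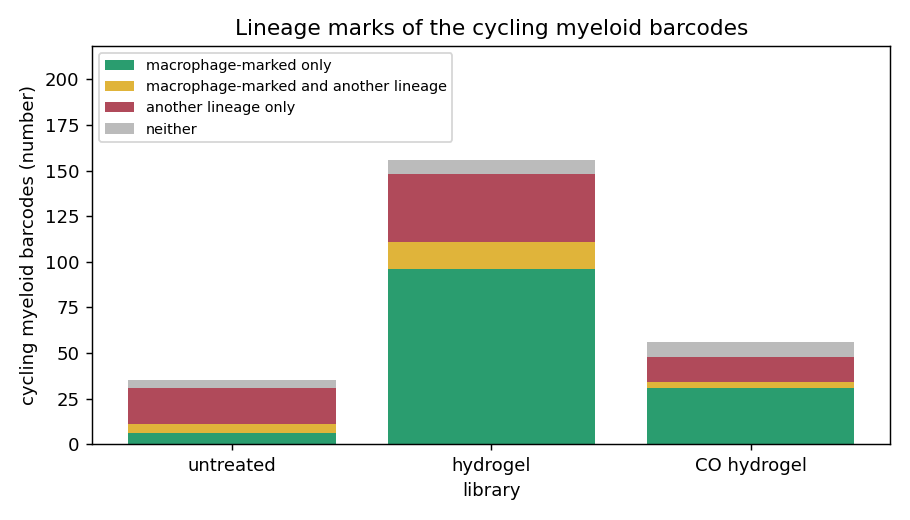
Number of cycling myeloid barcodes in each library (vertical axis), stacked by lineage mark. Macrophage-marked barcodes number 6, 96 and 31 from left to right, and barcodes marked only for another lineage 20, 37 and 14.

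The other lineages were mostly those of skin structure. Keratinocyte genes marked 7 untreated, 11 hydrogel and 9 CO hydrogel barcodes, mural genes (pericytes and vascular smooth muscle) 12, 17 and 5, endothelial genes 4, 9 and 3, T or NK genes 1, 15 and 2, and mast cell genes 1, 0 and 0. Levels of the myeloid genes, which the rule used, describe how the marked groups differ. In barcodes marked only for another lineage Csf1r, the receptor of CSF1, stood at 4.10, 14.6 and 13.2 counts per 1000000 UMIs summed over them (CPM), against 732, 449 and 446 in the macrophage-marked barcodes. The marker Cd68 stood at 26.6, 27.1 and 8.80 CPM against 563, 1264 and 1135, and Lyz2 at 127, 115 and 88.0 CPM against 15813, 8448 and 4934. Ptprc, the CD45 antigen of all leukocytes, stood closer, at 26.6, 192 and 92.4 CPM against 352, 241 and 261. Mki67 stood at 285, 702 and 339 CPM in the former and at 845, 169 and 479 CPM in the latter. Lyz2, an abundant lysozyme RNA that free RNA can bring into any droplet, was 1 of exactly 2 myeloid genes in 19 untreated, 35 hydrogel and 7 CO hydrogel members. The keratinocyte list summed to 11468, 2662 and 8762 CPM over all members and to 84.5, 35.5 and 54.6 CPM over the macrophage-marked ones. Barcodes marked by this list were left out of the latter, so the lower sums describe the mark and support nothing. Of 12 listed neutrophil precursor genes, 6 (Mpo, Prtn3, Ctsg, Ms4a3, Ltf and Ngp) had no UMI in any of the 247 barcodes and 6 had some. Of the latter, Elane had 2 UMIs in all, while Mmp9, a protease that other cells make too, had 29, 400 and 251 in the 3 libraries, Lcn2 42, 61 and 22, and Fcnb, also a monocyte gene, 5, 40 and 0. At least 2 genes of that list were detected in 17.1%, 18.6% and 5.36% of members. The comparisons therefore lead with the macrophage-marked barcodes, a subset defined after the data were seen.

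**Figure D2:**
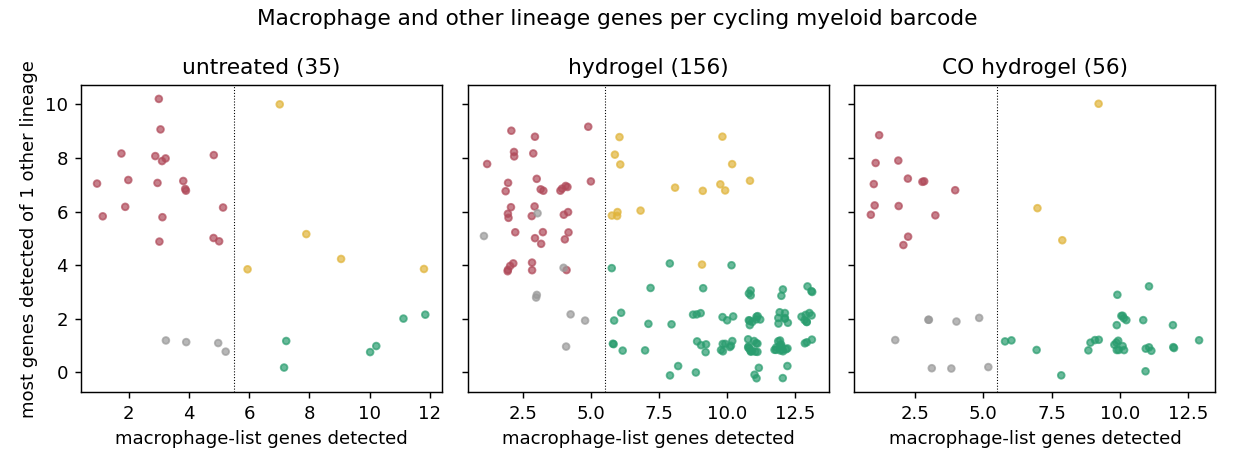
Each point is 1 cycling myeloid barcode, with the number of the 13 macrophage genes detected (horizontal axis) and the largest number of genes detected from 1 other lineage list (vertical axis), 1 panel per library and points spread slightly for visibility. Green points are macrophage-marked only, red another lineage only, yellow both and grey neither. The dotted line stands at the mark of 6 genes, and 6 green and 5 yellow of the 35 untreated points lie right of it.

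The members were deep barcodes. Their median UMIs were 16258 untreated, 15246.5 hydrogel and 10337.5 CO hydrogel, and in the macrophage-marked members 9822, 17022 and 10928. Macrophage-marked barcodes with no UMI of the 8 cycle genes, the reference used below, numbered 1728, 2902 and 1514 and had medians of 6261, 6164 and 4348. Library totals ran from 78233883 to 109718517 UMIs. Between 364 and 600 barcode sequences were shared by each pair of libraries, and 1 of these was a member in both the untreated and the CO hydrogel library. Doublets were not removed in the values given here; removing the barcodes with the highest Scrublet doublet scores took away 4, 19 and 16 members, of which 0, 9 and 10 were macrophage-marked.

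Just inside the rule, 6 untreated, 55 hydrogel and 15 CO hydrogel members had exactly 3 cycle genes. Just outside it, 23, 193 and 36 barcodes met every other condition with 2 cycle genes, and 20, 26 and 26 met every other condition with 1 myeloid gene. The exclusion of fibroblast and T cell genes removed 146, 193 and 247 barcodes, and a Lum UMI was on 140, 170 and 242 of them. Lum, a collagen-binding proteoglycan made by fibroblasts, also had a UMI in 30.5%, 33.4% and 51.0% of all macrophage-marked barcodes and in 19.9%, 22.6% and 32.5% of neutrophil-marked ones. In both lineages that share was highest in the CO hydrogel library. Of macrophage-marked cycling barcodes the exclusion removed 23 of the 29 untreated, 74 of the 170 hydrogel and 70 of the 101 CO hydrogel ones. Of those removed, 9, 57 and 35 held a single excluding UMI.

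Of myeloid barcodes (at least 2 myeloid genes and none of the excluded genes), members made up 0.682% untreated (0.475 to 0.947), 2.52% hydrogel (2.15 to 2.94) and 2.04% CO hydrogel (1.55 to 2.64). Of macrophage-marked barcodes the share was 6 of 1796 or 0.334% (0.123 to 0.726), 96 of 3591 or 2.67% (2.17 to 3.25) and 31 of 1712 or 1.81% (1.23 to 2.56). Without the exclusion it was 29 of 2656 or 1.09% (0.732 to 1.56), 170 of 5536 or 3.07% (2.63 to 3.56) and 101 of 3613 or 2.80% (2.28 to 3.39). As a background, neutrophil-marked barcodes, which should not divide, had at least 3 cycle genes in 32 of 5790 (0.553%) untreated and 3 of 2394 (0.125%) hydrogel barcodes, at medians of 2014 and 1835.5 UMIs against 6930.5 and 7206.5 in the macrophage-marked. In the CO hydrogel library it was 0 of 455, which allows a share of up to 0.659%, at 1353 against 5321.5 UMIs. These counts took in barcodes with an excluding UMI, so the shares to set beside them are those of macrophage-marked barcodes without the exclusion. Without any excluding UMI the background was 1 of 4606 untreated (0.0217%, 0.00055 to 0.121), 1 of 1828 hydrogel (0.0547%, 0.00138 to 0.304) and 0 of 299 CO hydrogel, which allows up to 1.00%. The untreated macrophage-marked share lay above this background, at a median depth over 3 times higher.

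The order of the hydrogel and CO hydrogel shares turned when the cycle genes of every barcode were read at the same depth. The macrophage mark, the myeloid genes and the excluding genes were still read with all UMIs. With the cycle genes read at 4000 UMIs per barcode, leaving out shallower ones, the median share over 20 random draws was 0.298% untreated (0.223 to 0.372 over the draws), 0.924% hydrogel (0.837 to 1.08) and 1.75% CO hydrogel (1.46 to 1.95). At 2000 UMIs it was 0.122%, 0.441% and 0.793%. Without the exclusion the shares at 4000 UMIs were 0.826%, 0.979% and 2.28%, and at 2000 UMIs 0.527%, 0.463% and 1.11%, so the untreated and hydrogel ranges overlapped. Counting intervals of a single draw were there 0.799 to 1.42 hydrogel and 1.84 to 3.08 CO hydrogel at 4000 UMIs. At 2000 UMIs they were 0.276 to 0.652 and 0.656 to 1.35, and neither pair overlapped. No order of the 3 libraries held over all these readings. The same reading of neutrophil-marked barcodes rested on few barcodes. At 4000 UMIs it was 23 of 372 untreated (6.18%, 3.96 to 9.13), 3 of 123 hydrogel (2.44%, 0.506 to 6.96) and 0 of 23 CO hydrogel, which allows up to 13.04%. The first of these lay above the macrophage-marked shares at that depth, and 22 of its 23 barcodes held an excluding UMI. Among those without one, 1 of 156 untreated (0.641%, 0.0162 to 3.52) and 1 of 20 hydrogel barcodes had at least 3 cycle genes. At 2000 UMIs the background was 0.375% untreated (0.187 to 0.670), 0.223% hydrogel (0.0270 to 0.803) and 0 of 53 CO hydrogel, which allows up to 5.66%. Macrophage-marked shares at fixed depth did not all exceed this background. Thinning to 4000 UMIs left out 24.9%, 19.5% and 31.4% of macrophage-marked barcodes.

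**Figure D3:**
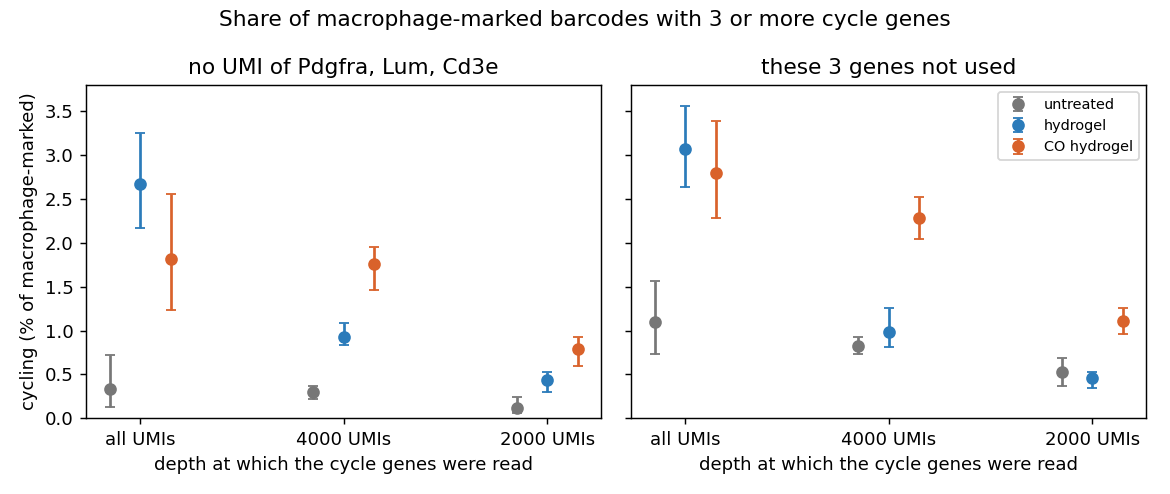
Share of macrophage-marked barcodes with at least 3 of the 8 cycle genes (vertical axis, percent) with all UMIs and with the cycle genes read at 4000 or 2000 UMIs, under the rule (left) and without the 3 excluding genes (right). Bars at all UMIs are 95% exact binomial intervals and bars at fixed depth the lowest and highest of 20 draws; the CO hydrogel point lies below the hydrogel point at all UMIs and above it at both fixed depths.

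The members differed widely in how much cycle RNA they held. Cycle RNA that the rule did not use was read as the UMIs of 142 other replication and mitosis genes per 10000 UMIs. Its median in macrophage-marked members was 112 untreated (lowest 47.0, highest 311), 30.7 hydrogel (lowest 10.9) and 103 CO hydrogel (lowest 16.0), against 20.8, 23.6 and 21.8 in reference macrophages with at least 10000 UMIs. The 43 hydrogel members with exactly 3 cycle genes had a median of 26.8 and the 28 with 4 or 5 genes 28.8, both close to that reference, while the 25 with 6 to 8 genes had 140. Among CO hydrogel members the 9 with 3 genes had 21.2, the 11 with 4 or 5 genes 91.7 and the 11 with 6 to 8 genes 157. In the hydrogel library 56 of 96 macrophage-marked members held at most 5 UMIs of the 8 rule genes together, against 1 of 6 untreated and 11 of 31 CO hydrogel. Barcodes with at least 6 cycle genes, a limit set after the data were seen, made up 1 of 1796 untreated (0.0557%), 25 of 3591 hydrogel (0.696%, interval 0.451 to 1.03) and 11 of 1712 CO hydrogel (0.643%, 0.321 to 1.15) macrophage-marked barcodes. Without the exclusion these shares were 0.640% (0.373 to 1.02), 0.777% (0.563 to 1.04) and 1.11% (0.792 to 1.50). The intervals of all 3 overlapped there.

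Among the rule genes, Mki67, the proliferation antigen that coats mitotic chromosomes, stood at 845 CPM untreated, 169 hydrogel and 479 CO hydrogel in macrophage-marked members. It had a UMI in 6 of 6, 58 of 96 and 24 of 31 of them, and 1 untreated barcode held 66.7% of the untreated UMIs. Top2a, which untangles DNA before mitosis, stood at 479, 152 and 149 CPM, so the hydrogel and CO hydrogel levels lay together. Cdk1, the kinase that drives entry into mitosis, stood at 268, 57.8 and 127 CPM, and its partner cyclin Ccnb1 at 197, 69.8 and 127 CPM. Cenpf, a kinetochore protein, stood at 451, 119 and 203 CPM, Birc5 (survivin) at 155, 68.0 and 146, Ube2c, an enzyme of cyclin breakdown, at 465, 95.7 and 124, and the spindle factor Tpx2 at 211, 97.5 and 173. Of the 6 untreated barcodes, Cdk1 and Ube2c had a UMI in 2, Top2a and Tpx2 in 3, Ccnb1 in 4, and Birc5 and Cenpf in 5. A single one of them held 16 Cdk1, 32 Ube2c, 23 Top2a and 12 Tpx2 UMIs. That barcode held 157 UMIs of the 8 rule genes, against a median of 12 over the 6.

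Of 124 cell cycle list genes outside the rule with at least 20 UMIs over the 3 libraries, 69 were highest untreated and lowest in the hydrogel library, 84 highest untreated, 32 highest in the CO hydrogel library and 8 highest in the hydrogel library. The shares of all genes in these orders are not given, so the counts have no background beside them. In the untreated library 1 of the 6 barcodes held 311 UMIs of other replication and mitosis genes per 10000, against a median of 112. Stmn1, a regulator of microtubules, stood at 1281 CPM untreated, 182 hydrogel and 628 CO hydrogel, against 12.3, 14.1 and 30.4 in the reference. The chromatin protein Hmgb2 stood at 1718, 406 and 580 CPM, and Racgap1, needed for cytokinesis, at 70.4, 22.3 and 100. Among S phase genes, Pcna, the sliding clamp of DNA replication, stood at 155, 123 and 222 CPM, close to the 178, 173 and 159 CPM of macrophages without a cycle UMI. Gmnn, an inhibitor of repeated origin licensing, stood at 113, 52.98 and 124 CPM against 15.7, 15.1 and 16.1. Dut, which keeps uracil out of DNA, stood at 155, 49.4 and 121 CPM against 7.94, 7.62 and 10.0. The untreated values rest on 6 barcodes. Median UMIs of the macrophage-marked members were 9822 untreated, 17022 hydrogel and 10928 CO hydrogel, and the part of depth in these levels was not tested.

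**Figure D4:**
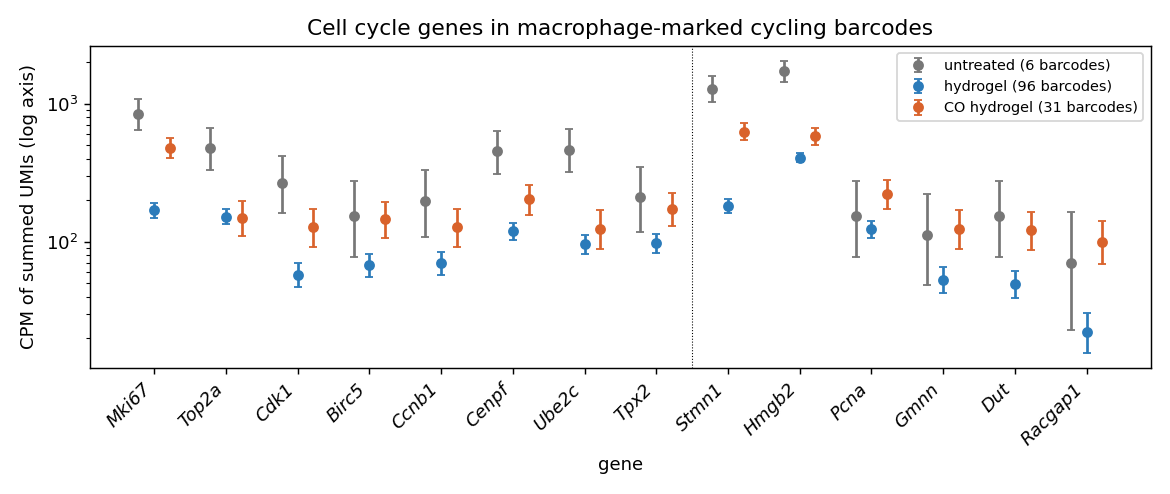
Level of 8 cycle genes of the rule (left of the dotted line) and 6 other cell cycle genes (right) in macrophage-marked members, as CPM of summed UMIs on a log axis, with 95% exact Poisson intervals that cover counting error only. Hydrogel points lie below CO hydrogel points for each gene shown except Top2a, at 152 and 149 CPM.

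The closest comparison in design is CO hydrogel with hydrogel, since both wounds were covered with the same material and 1 of the covers released CO. In macrophage-marked members, 4111 genes had 50 or more UMIs over the pair. Of these 84 (2.04%) were higher by at least 2-fold in the CO hydrogel library and 236 (5.74%) lower, with a median log2 ratio of 0.01. These counts moved with the choices: the higher genes were 48 without the barcodes of highest Scrublet score, 10 of the 31 CO hydrogel members among them, and 142 with the mean of per-cell CPM, and the lower genes were 149 with at least 4 cycle genes. By the rule for named genes, the highest ratios went to Hist1h2an, a replication-linked histone (49.4 CPM hydrogel, 300.4 CO hydrogel, log2 ratio 2.61, interval 2.17 to 3.05), Racgap1 (2.17, 1.45 to 2.89), Clec10a, a lectin of alternatively activated macrophages (1.85, 1.47 to 2.23), Stmn1 (1.78, 1.52 to 2.04), Cdkn3 (1.74), Mki67 (1.51), the linker histone H1f5 (1.49), Psip1 (1.49), H4f3 (1.45) and Cxxc1 (1.45). Of these 10, 6 were histones or genes of cell division outside the rule, and Mki67 was a gene of the rule. In macrophages without a cycle UMI the ratio of Clec10a was 2.60, of Stmn1 1.11 and of Cdkn3 0.10.

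Of 121 measured cell cycle list genes outside the rule, 99 were at a higher level in the CO hydrogel than in the hydrogel members, 32 of them at least 2-fold, and 3 were at least 2-fold lower (median log2 0.65). By list, rule genes included, of replication licensing and fork genes 6 of 18 measured were at least 2-fold higher and 0 lower (median log2 0.80), of spindle genes and kinesins 9 of 23 and 0 (0.66), of condensin and chromatin genes 4 of 13 and 0 (0.84), and of anaphase and cytokinesis genes 4 of 9 and 0 (1.00). In macrophages without a cycle UMI the same medians were 0.12, -0.26, -0.03 and -0.53. The other lists went less far. Of kinetochore and checkpoint genes 3 of 17 were at least 2-fold higher and 1 lower (0.59), of nucleotide supply genes 2 and 1 of 11 (0.71), of S phase repair genes 2 and 0 of 4 (0.82), and of cyclin and CDK drivers of mitosis 1 and 1 of 9 (0.61, with 5 above 0). E2F, DREAM and FOXM1 regulators had 0 of 7 past 2-fold (0.33), cell cycle inhibitors 1 higher of 7 (0.02) and G1 cyclins and kinases 0 of 3 (0.09, beside 0.57 in macrophages without a cycle UMI). Over all 156 hydrogel and 56 CO hydrogel members, other lineages included, the difference was small. There 90 of 151 measured genes were above 0, 4 at least 2-fold higher and 3 lower (median 0.16). Of 23 spindle genes 0 were past 2-fold (0.09). The share of members with many cycle genes moves with this difference, as 43 of 96 hydrogel members but 9 of 31 CO hydrogel members had only 3. Depth moves with it too, since the rule took a UMI of a gene at any depth. Macrophage-marked members had medians of 17022 hydrogel and 10928 CO hydrogel UMIs, and those with 6 to 8 cycle genes 18487 and 10041. The part of depth in the difference was not tested. Among members with 6 to 8 cycle genes, 25 against 11 barcodes, the medians were 0.51 (7 genes), 0.50 (20), 0.64 (11) and 0.74 (7), with 1, 3, 0 and 1 genes at least 2-fold higher and 1, 0, 0 and 0 lower. Mki67 was there at 458 and 1027 CPM (log2 1.16, 0.82 to 1.50) and Top2a at 445 and 333 CPM (-0.42, -0.96 to 0.09).

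Several genes induced by interferon were lower in the macrophage-marked members of the CO hydrogel library. Of 14 measured interferon response genes 6 were at least 2-fold lower and 0 higher, with a median of -0.74 against 0.20 in macrophages without a cycle UMI. Cxcl9, a chemokine that draws T cells, had 289 UMIs in 19 of 96 hydrogel members and 0 UMIs in 31 CO hydrogel members. Its relative Cxcl11 stood at 457 CPM in the hydrogel members, in 24 of 96 barcodes, and at 27.3 CPM in 1 CO hydrogel barcode (log2 ratio -4.06, -5.20 to -3.13). The third of this family, Cxcl10, stood at 440 and 60.7 CPM (-2.86, -3.58 to -2.22), while in macrophages without a cycle UMI it stood at 451 and 773 CPM (0.78). Isg15, a ubiquitin-like antiviral protein, stood at 157 and 18.2 CPM (-3.11, -4.57 to -1.97). The interferon-induced GTPases Igtp and Gbp5 had ratios of -4.30 and -3.93, from 99 and 231 hydrogel UMIs against 1 and 3. Mx1 and Mx2 of the same list stood at 0.66 (-0.02 to 1.30) and 0.63 (-0.72 to 1.82). Rsad2, with 5 and 3 UMIs, was below the 20 UMIs needed and is not among the 14. Among members with 6 to 8 cycle genes 7 of 10 measured list genes were at least 2-fold lower, Cxcl10 stood at 740 and 26.3 CPM (-4.81, -7.10 to -3.25) and Cxcl11 at 954 CPM and 0 UMIs. In the hydrogel library 1 of these barcodes, with 23766 UMIs in all, held 190 Cxcl11 UMIs and 67 of the 289 Cxcl9 UMIs.

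Other named genes that were lower with the CO hydrogel were Pstpip2 (-3.82), the transcription factor Camta1 (-3.55), Nampt, an enzyme of NAD synthesis (294 and 27.3 CPM, -3.43, -4.56 to -2.49), and the chemokine Ccl9 (-3.15), whose ratio turned to 0.97 when 5 macrophage genes sufficed for the mark. Gal, a neuropeptide, and Ass1, an enzyme of arginine synthesis, had 187 and 59 hydrogel UMIs and 0 in the CO hydrogel members, and 1 hydrogel barcode held 75.9% of the Gal UMIs. Nos2, the inducible nitric oxide synthase, stood at 241 and 36.4 CPM (-2.73, -3.69 to -1.90), beside -2.86 in macrophages without a cycle UMI. Of 13 inflammatory cytokine genes 5 were at least 2-fold lower and 0 higher (median -0.74, beside -0.42 in the others). Il1b stood at 1805 and 1080 CPM (-0.74, -0.90 to -0.58). The list was not lower among members with at least 6 cycle genes. There 1 of 10 measured genes was at least 2-fold lower and 0 higher, with 5 above 0 and 5 below (median -0.03). In all macrophage-marked members 3 of 5 measured mature neutrophil genes were at least 2-fold lower and 0 higher (median -1.65, beside -1.41). The part of neutrophil RNA in the inflammatory ratios was not tested. Of 8 resident-type macrophage genes 4 were at least 2-fold higher and 0 lower (median 1.05, beside 1.80). Mrc1, the mannose receptor, stood at 234 and 561 CPM (1.26, 1.00 to 1.52), and Cd163, the hemoglobin scavenger receptor, at 8.43 and 39.5 CPM (2.23, 1.02 to 3.42) from 14 and 13 UMIs. Of the 13 general macrophage genes, which made the mark and so describe it, 0 were past 2-fold in either direction (median -0.04). Fibroblast genes summed to 447 and 932 CPM in these members, with 0 and 1 of the 10 at 0 UMIs, and to 756 and 1603 in the reference; their part in the ratios was not tested.

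**Figure D5:**
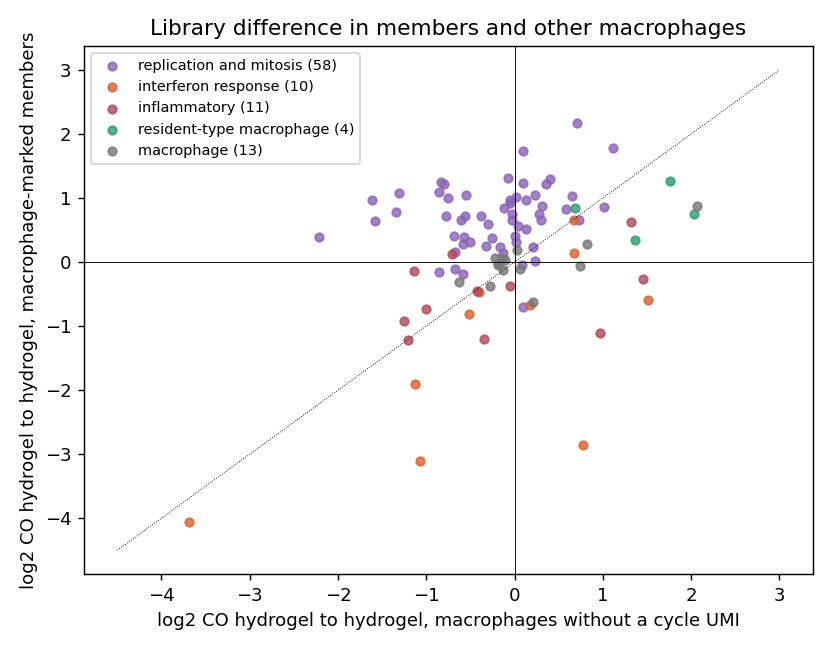
Log2 ratio of CO hydrogel to hydrogel for genes of 5 lists, in macrophage-marked members (vertical axis) against macrophage-marked barcodes without a cycle UMI (horizontal axis), 1 point per gene with at least 50 UMIs in the pair of member sums and a finite ratio in both, and the number of genes in the key. Points of replication and mitosis genes lie mostly above 0 on the vertical axis, Cxcl10 lies at 0.78 across and -2.86 down, and the dotted line marks equal ratios.

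The balance of higher and lower genes depended on the exclusion. Without it, 170 hydrogel and 101 CO hydrogel macrophage-marked barcodes with at least 3 cycle genes gave 324 genes at least 2-fold higher and 157 lower. The fibroblast list then had 8 of 10 genes higher (median 2.32, beside 1.20 in macrophages without a cycle UMI). Under that choice Mki67 stood at a log2 ratio of 1.27, Stmn1 at 1.86, Clec10a at 2.34, Cxcl9 at -1.22, Cxcl10 at -1.79, Cxcl11 at -2.10 and Gbp5 at -2.17, the same signs as under the rule.

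Over all members, 156 of 5924 genes (2.63%) were at least 2-fold higher in the CO hydrogel library relative to the hydrogel one and 316 (5.33%) lower. The lower named genes again included Igtp, Cxcl9, Cxcl11, Gbp5, Irgm and Cxcl10, with Cxcl9 at 138 and 5.93 CPM (log2 -4.54, -6.42 to -3.17), and the costimulatory receptor Cd40 at 44.1 and 5.93 CPM (-2.90). Some higher named genes were nearly absent from macrophage-marked members. Cdcp1, at 9.54 and 56.3 CPM over all members, had 0 UMIs in the macrophage-marked ones, and Nppb, at 94.2 and 298 CPM (1.66), had 2. Of 8 keratinocyte list genes 7 were at least 2-fold higher (median 1.62), which moves with the 11 of 156 and 9 of 56 keratinocyte-marked barcodes. Acp5, an acid phosphatase of osteoclasts and some macrophages, stood at 461 and 2065 CPM (2.16), but 1 CO hydrogel barcode held 86.7% of its UMIs, and in macrophage-marked members its ratio was -0.57. Mmp3, a matrix protease, stood at 325 and 20.7 CPM (-3.97) and had 4 and 0 UMIs in macrophage-marked members.

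Against the untreated library, 207 of 3506 genes (5.9%) were at least 2-fold higher over all CO hydrogel members and 269 (7.67%) lower, and 645 of 6001 (10.7%) and 471 (7.85%) over all hydrogel members. These ratios move with the makeup, since 17.1% of untreated members were macrophage-marked against 61.5% and 55.4%. Apoe, a lipid carrier that wound macrophages make in quantity, stood at 945 CPM untreated, 29638 hydrogel and 16358 CO hydrogel. Gpnmb, a glycoprotein of lipid-laden macrophages, stood at 43.7, 1335 and 911 CPM, and the detoxifying enzyme Gsta1 at 1.46, 345 and 173 CPM. In the macrophage-marked members Gpnmb stood at 169, 1944 and 1602 CPM, the untreated value from 12 UMIs in 6 barcodes. Of the genes highest in untreated members, the chemokines Ccl21 and Ccl22 had 214 and 142 UMIs, and 1 barcode held 99.5% and 99.3% of them.

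The macrophage-marked members were also compared with macrophages without a cycle UMI of the same library. Most hydrogel members in this comparison had 3 to 5 cycle genes and held little more of the other cycle RNA than the deep reference, as given above. In macrophage-marked barcodes, 100 of 4201 genes (2.38%) were at least 2-fold higher in all 3 libraries and 49 (1.17%) at least 2-fold lower in all 3. The higher ones named here act in cell division or DNA replication and are no genes of the rule. Cep55, which completes cytokinesis, stood at 14.1, 29.5 and 54.6 CPM against 0.414, 1.64 and 0.424. Plk4, which duplicates centrioles, stood at 42.2, 28.9 and 63.7 CPM against 2.65, 6.29 and 2.83. Dctpp1, which cleans up nucleotides, had a mean log2 ratio of 3.32 (SD 0.83, n = 3 libraries), Fam111a, which acts at replication forks, 5.36 (SD 2.17) and Arhgap11a 3.02 (SD 0.95). Since cycle genes chose the members, these values describe the choice.

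Many inflammatory genes and some monocyte genes were lower in the macrophage-marked members of all 3 libraries. Il1b stood at 2872, 1805 and 1080 CPM in these members against 9507, 7507 and 3756 in the others, a mean log2 ratio of -1.86 (SD 0.17, n = 3 libraries). Vcan, a proteoglycan of monocytes, stood at 366, 267 and 155 CPM against 2099, 1052 and 704 (-2.23, SD 0.27). Ptgs2, the prostaglandin synthase COX-2, stood at 225, 495 and 261 CPM against 2916, 1947 and 818 (-2.44, SD 1.10). Plac8 (-4.62, SD 0.84), G0s2 (-4.56, SD 0.39), Clec4d (-2.25, SD 0.33), Ereg (-2.25, SD 0.40), Mxd1 (-1.85, SD 0.21), Slc16a3 (-2.53, SD 0.78) and the chemokine Ccl6 (-2.17, SD 0.61) were lower as well. Of 13 inflammatory cytokine genes 8 were at least 2-fold lower in all 3 libraries and 11 had a ratio below 0 in all 3. Of 9 monocyte genes 3 were at least 2-fold lower in all 3. Of 13 macrophage genes 0 were past 2-fold in all 3 libraries, in either direction. These 13 genes made the macrophage mark of both groups, so their likeness describes the mark and supports nothing. Respiratory chain genes were slightly higher: 14 of 15 had a ratio above 0 in all 3 libraries (median of means 0.47, over all genes 0.20), and 0 reached 2-fold in all 3. The subunit Atp5f1b of ATP synthase stood at 676, 622 and 707 CPM against 339, 442 and 433.

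Depth and neutrophil RNA moved with this difference. The mature neutrophil list summed to 211, 377 and 103 CPM in the macrophage-marked members, with 6, 0 and 4 of its 10 genes at 0 UMIs, and to 7295, 3734 and 1024 CPM in the others, with none at 0. S100a8, a neutrophil protein, stood at 42.2, 114 and 36.4 CPM against 1529, 882 and 332. The genes Il1b, Cxcl2, Ccl3 and Nos2 were over 5 times higher in another cell group, so free RNA can bring them. Reference macrophages with at least 10000 UMIs, a choice made after seeing the data, numbered 373, 506 and 52. Their median UMIs were 12608, 12303.5 and 11585.5, against 9822, 17022 and 10928 in the macrophage-marked members, so depth was not matched. Against them 84 genes were at least 2-fold higher in all 3 libraries and 12 lower, in place of 100 and 49. Il1b then stood at a mean log2 ratio of -1.19, Vcan at -1.81, Ptgs2 at -2.07, Mxd1 at -1.30 and Plac8 at -3.47, each at least 2-fold lower in all 3 libraries. G0s2 (-1.57), Clec4d (-1.25) and Ereg (-1.39) did not reach 2-fold in all 3, and G0s2 was at 0.23 in the CO hydrogel library.

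Over all members the same comparison, with myeloid barcodes without a cycle UMI as reference, gave 496 of 6598 genes (7.52%) higher in all 3 libraries and 117 (1.77%) lower. Of the highest, Krt14 and Krt71 are keratins of epidermis and hair follicle, and Krt14 stood at 441, 91.5 and 239 CPM over all members against 0 and 0 CPM in the macrophage-marked untreated and CO hydrogel members and 1.20 in the hydrogel ones. Krt14 is on the keratinocyte list by which barcodes were left out of the macrophage-marked ones, so this contrast describes the mark. Depdc1, a gene of mitosis, stood at 48.1, 35.0 and 20.7 CPM, and was present in the macrophage-marked members too, at 28.2, 19.9 and 18.2 CPM. The lowest again held Il1b, Vcan, Nos2, Plac8 and Ccl6. How far other cell types enter the values over all members was not tested beyond the marks given above.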

How the data were processed

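Deposited values were raw UMI counts for each gene and barcode. The header of the deposited matrices names Cell Ranger 6.0.1, and the submitters' processing notes list Cell Ranger 7.0.0, Seurat 4.2.0, DESeq 1.38.0 and build rn6. The 10x libraries were 3' libraries of digested skin after lysis of red cells, per the labels' protocols. The treatment label gave the groups, and with 1 library in each no test was possible.

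For each library the counts of the selected barcodes were added up and scaled to CPM. A gene entered a comparison with 50 or more UMIs over the pair (20 or more for genes of a list) and was called past a 2-fold ratio. Intervals (95%) were exact: conditional binomial for ratios, Clopper-Pearson for shares and Poisson for levels. They cover counting error only, and where no barcode was found the limit came from 3 counts. Named genes were taken from the 10 of highest and the 10 of lowest ratio for each pair, given a UMI in at least 5% of the barcodes of 1 library, and for members against barcodes without a cycle UMI from the 15 strongest in all 3 libraries. Mitochondrial, ribosomal, hemoglobin and immunoglobulin genes were left out, and for pairs of libraries also those more than 5 times higher in another cell group. Where the untreated library, with 6 macrophage-marked members, or the 15 were concerned, only some of these genes are printed, chosen after their values were seen. Genes of the rule and of the lists were named as well. The members, the 42 gene lists (498 of 516 genes in the files) and these rules were chosen with earlier results of these data known.

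Added after the values were seen were the lineage marks with their readings at 5, 7 and 8 genes, the reference above 10000 UMIs, the 20 draws and the group with 6 to 8 cycle genes. Scrublet's own threshold called 0, 1 and 506 barcodes, under 0.5% in 2 libraries, so as an alternative the highest scores were removed at 0.8% per 1000 barcodes (1145, 1646 and 1782). The scripts were tested on simulated data. Software was Python 3.11.15 with scanpy 1.11.5 and matplotlib 3.10.9 for Scrublet and figures, and scipy 1.17.1, numpy 2.4.6 and pandas 2.3.3. The TMM alternative used edgeR 4.0.16 in R 4.3.3.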

Additional observations from a re-analysis of the deposited data

How the results depend on the processing

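No paired analysis was possible because each group had 1 library and no test was made. Values stand in the order untreated, hydrogel, CO hydrogel. With at least 2 cycle genes, members were 58, 349 and 92 (1.13%, 5.64% and 3.35% of myeloid barcodes) and macrophage-marked members 16, 258 and 54 (0.891%, 7.18% and 3.15% of macrophage-marked barcodes). With at least 4, hydrogel members were 101 (1.63%) and macrophage-marked hydrogel members 53 (1.48%), the CO hydrogel share was 1.49%, and lower genes were 149 in macrophage-marked members (CO hydrogel to hydrogel) and 167 and 287 in members (CO hydrogel and hydrogel to untreated). Without the exclusion, members were 181, 349 and 303 (2.46%, 3.38% and 4.04%) and macrophage-marked members 29, 170 and 101 (1.09% untreated, 2.80% CO hydrogel). Higher genes were then 324 and lower 157 in macrophage-marked members, and higher genes 505 and 588 in members (CO hydrogel to hydrogel and to untreated). With at most 1 excluding UMI, members were 65, 237 and 126 (1.00% untreated, 2.91% CO hydrogel) and macrophage-marked members 15, 153 and 66.

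With at least 2 of Cd68, Csf1r, C1qa and C1qb, untreated members were 15 (0.997%), the hydrogel share was 3.33% and lower genes (CO hydrogel to untreated) 102. The stricter filter gave an untreated share of 0.948%. Read at 4000 UMIs, untreated and hydrogel members were 20 and 60, shares 1.06%, 1.47% and 3.12%, and macrophage-marked members 30 hydrogel (1.05%) and 19 CO hydrogel. Read at 2000 UMIs, untreated and hydrogel members were 12 and 38, shares 0.333%, 0.703% and 1.41%, and macrophage-marked members 3, 15 and 10 (0.441% hydrogel, 0.661% CO hydrogel). Called genes there fell for lack of UMIs: 13 higher and 35 lower (macrophage-marked, CO hydrogel to hydrogel), 22 and 61 (members), 44 and 37 (CO hydrogel to untreated), 130 and 75 (hydrogel to untreated), 10 and 14 (cycling, macrophage-marked) and 109 and 36 (cycling, members). With no minimum and 0.5 counts added they were 1724 and 1103, 1973 and 1213, 2022 and 2462, and 1601 and 2707 for the first 4. Without the highest Scrublet scores 48 genes were higher in macrophage-marked members, and with the mean of per-cell CPM 142 were. With all myeloid barcodes as reference 81 genes were lower in macrophage-marked members than in barcodes without a cycle UMI, and with the deeper reference 12. With the macrophage mark at 8 genes the hydrogel share was 3.38%.

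The log2 ratio of Acp5 over all members turned to -0.65 under the stricter filter, -1.39 without the highest Scrublet scores and -0.69 with at least 4 cycle genes. Nppb turned to -0.32 with at least 2 of 4 macrophage genes, Ttc7b to 0.17 without the exclusion, and Ccl9 in macrophage-marked members to 0.97 with the mark at 5 genes. Of the other named ratios under the alternatives, 305 stayed within the interval of the reported value and 52 left it without turning. Apart from the effect of fewer UMIs named above, the cause of these changes was not tested. The 6 untreated macrophage-marked barcodes and the 1 library per group limit every comparison.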
